A study of Mus musculus with 25 samples.

Results

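The 49 genes described here are interferon-stimulated genes of the mouse, a family of transcripts that interferons are known to induce. They were taken by symbol from the deposited gene expression table, and all 49 were listed there, each once, among 54532 genes. A level of at least 0.5 FPKM (fragments per kilobase of gene, scaled to the depth of the library) in at least 5 of the 25 libraries was required for testing, which 42 of the 49 members met, against 16450 genes in the whole table. The 7 members below that level were Mx1, Mx2, Oas2, Oas3, Oasl1, Zbp1 and Ifi44.

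Interferons are secreted proteins that cells release when sensors detect foreign or misplaced nucleic acid. Type I interferons bind the receptor IFNAR1-IFNAR2, whose kinases JAK1 and TYK2 phosphorylate STAT proteins, of which STAT2 joins IRF9 in the complex ISGF3, which binds the interferon-stimulated response element (ISRE). Interferon-gamma, the type II interferon, acts on genes through the gamma-activated site (GAS). The induced proteins sense or degrade viral RNA, block translation and viral entry, conjugate the ubiquitin-like protein ISG15, or damp the response itself. In brain, microglia, astrocytes and endothelial cells are known to express such genes, and interferon-responsive microglia are known from models of amyloid deposition.

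RNA from cortex was sequenced from 25 mice in 5 groups of 5. The groups were 5xFAD mice given vehicle (AD_Veh), 5xFAD mice given a low dose of P (AD_LowP), 5xFAD mice given a high dose of P (AD_HighP), wild-type mice given the high dose (WT_HighP) and wild-type mice given vehicle (WT_Veh). The 5xFAD line carries mutant human transgenes, APP among them, driven by Thy1 promoter sequences, which are active mainly in neurons. P is a natural product derivative. The labels name neither the compound nor its doses, the length of treatment or the age of the mice. Xist and Y-linked transcripts placed 3 males and 2 females in every group. The libraries held 15518358 to 17698222 reads assigned to genes. Choroid plexus transcripts set 4 libraries apart: Ttr was at 788 and 484 FPKM in AD_HighP mice 1 and 4 and at 671 and 820 FPKM in WT_HighP mice 1 and 2, against at most 58.2 FPKM in the other 21.

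The start regions of the members were read first, because most members are known as direct targets of the factors named above. RefSeq windows on GRCm38.p6, from 250 bases before to 50 after the annotated start, were found for 36 of the 49 members. The ISRE core, written GAAANNGAAA and searched on both strands, occurred in 21 of these 36 (58.3%), against 3.99% of all 27025 genes with a window. The GAS motif, written TTCNNNGAA, which reads the same on both strands, occurred in 10 of 36 (27.8%), against 9.55% of all genes. The 2 motifs share letters where they meet, as in Bst2, and a match of letters is a description, not a site of binding. Of the 9 members with more than 1 core in a window, 8 had the cores upstream of the start, and their stretches are shown, with the cores in capitals, on the strand of the gene and with overlapping cores run together.
Isg15: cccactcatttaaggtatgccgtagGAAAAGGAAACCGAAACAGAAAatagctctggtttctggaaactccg
Irgm1: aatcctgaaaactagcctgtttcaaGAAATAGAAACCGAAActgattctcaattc
Oas1a: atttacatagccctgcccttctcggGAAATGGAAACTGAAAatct
Bst2: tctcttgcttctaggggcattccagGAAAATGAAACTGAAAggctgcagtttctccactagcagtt
Gbp3: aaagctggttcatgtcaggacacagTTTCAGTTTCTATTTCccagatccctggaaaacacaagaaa
Ifit1: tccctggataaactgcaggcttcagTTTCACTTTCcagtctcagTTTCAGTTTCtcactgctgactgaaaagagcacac
Ifit3: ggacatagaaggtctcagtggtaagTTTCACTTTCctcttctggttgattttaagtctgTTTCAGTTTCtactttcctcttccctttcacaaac
Ifit3b: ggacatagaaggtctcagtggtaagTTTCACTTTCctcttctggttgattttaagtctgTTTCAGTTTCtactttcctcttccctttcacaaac
Their positions on GRCm38.p6 are chr4:156200850-156200921 (minus strand) for Isg15, chr11:48871421-48871475 (minus strand) for Irgm1, chr5:120907526-120907570 (minus strand) for Oas1a, chr8:71537562-71537627 (minus strand) for Bst2, chr3:142559974-142560039 (plus strand) for Gbp3, chr19:34640760-34640838 (plus strand) for Ifit1, chr19:34583348-34583441 (plus strand) for Ifit3 and chr19:34607744-34607837 (plus strand) for Ifit3b. Isg15 held 3 overlapping cores, the first of them starting 78 bases before the start. The stretches of Ifit3 and Ifit3b were identical letter for letter, within a shared run of 169 bases, and their cores stood 24 bases apart, against 9 bases in Ifit1. In Ifit1, Ifit3, Ifit3b and Gbp3 the core lies on the strand opposite to the gene and so appears as its reverse complement.

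**Figure D1:**
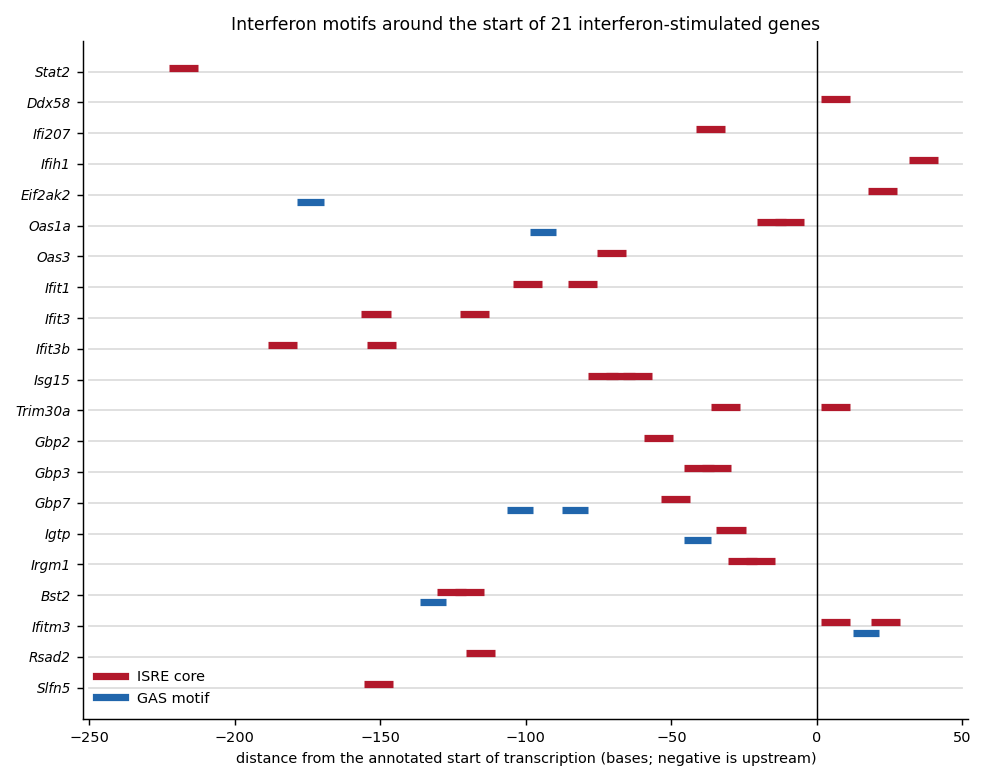
Positions of the ISRE core (red) and the GAS motif (blue) in the RefSeq windows of the 21 members with an ISRE core, in bases from the annotated start (vertical line), with 1 row per gene grouped by role; Trim30a has 2 windows, drawn on the same row. In 17 of the 21 a core lies upstream of the start, and in 16 of them within 200 bases of it.

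The comparison of AD_Veh with WT_Veh asked how the members differ between genotypes without P. Of the 42 tested members, 24 were higher in AD_Veh and 0 were lower at an adjusted p under 0.05 (limma on log2(FPKM + 0.5), Benjamini-Hochberg over 16450 genes), where 2.83% of all tested genes were called higher and 0.274% lower. The median log2 fold change of the 42 was 0.79, against -0.02 for all tested genes, and the 42 estimates ran from 0.04 (Adar) to 2.10 (Lgals3bp). In 22 members all 5 AD_Veh mice lay above all 5 WT_Veh mice, which held for 3.02% of all tested genes. Levels were low: 33 of the 42 averaged under 2 FPKM in WT_Veh and 17 of them under 1 FPKM, so that fold changes on this scale understate the change. Because 7 of the 42 (Ifi204, Ifi207, Oas1a, Usp18, Dhx58, Iigp1 and Ifi27l2a) met the level for testing only through 5xFAD libraries, the count was also taken over the other 35, of which 19 were called higher with a median of 0.72. The 5 calls among the 7 were those of Ifi204, Ifi207, Oas1a, Usp18 and Ifi27l2a, and the counts by role below include them. These 5 are also among the 22 members without overlap.

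**Figure D2:**
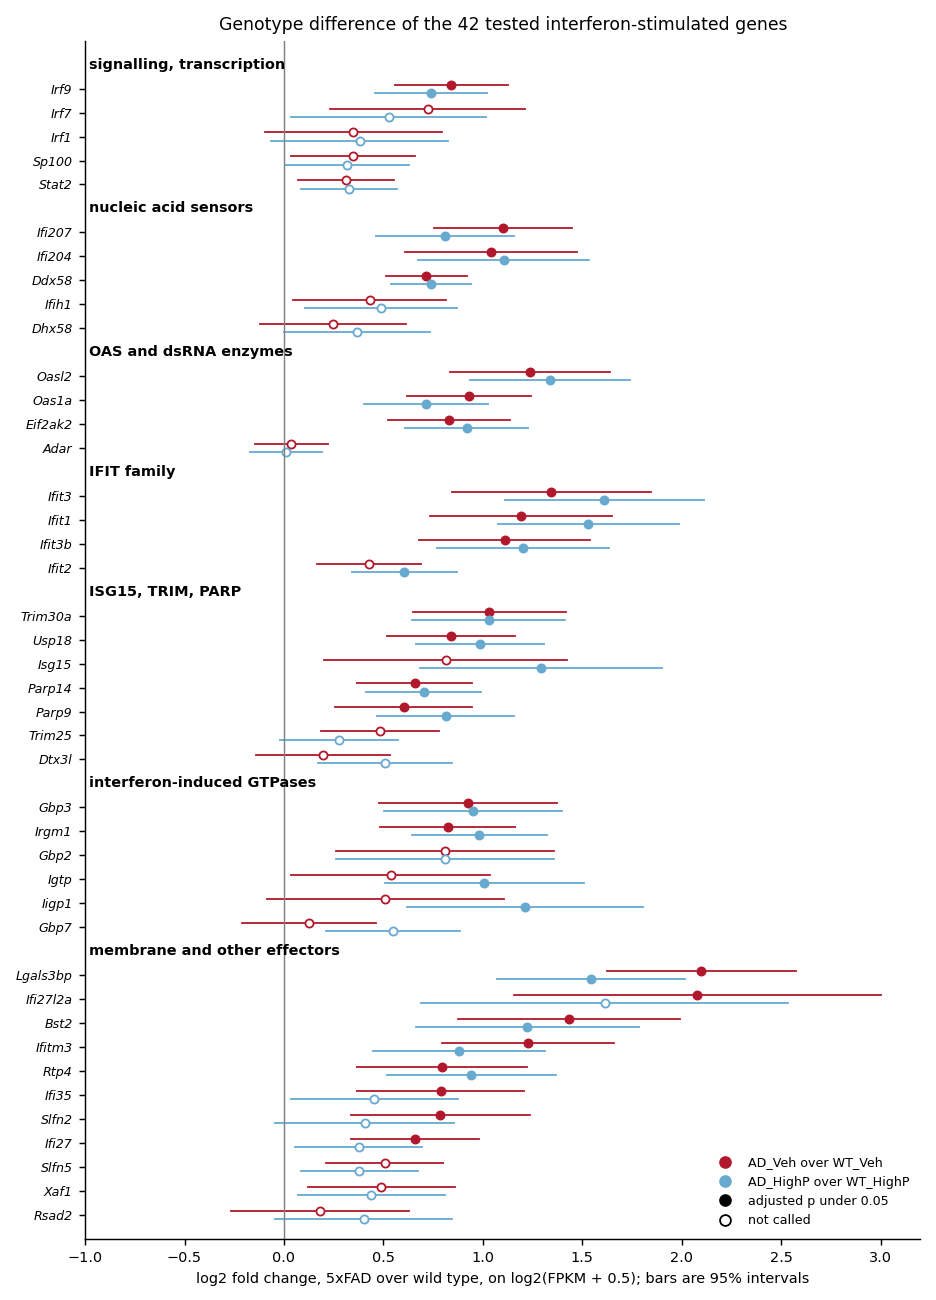
Log2 fold change of 5xFAD over wild type with its 95% interval for the 42 tested members, grouped by role, from AD_Veh over WT_Veh (red) and from AD_HighP over WT_HighP (blue); filled points have an adjusted p under 0.05. Points of both colours lie right of 0 for all 42, and 24 are filled in each comparison.

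Among the signalling and transcription factors, 1 of 5 was called higher, with a median log2 fold change of 0.35 over the class. Irf9, the DNA-binding subunit of ISGF3, had 3.58, 2.64, 4.19, 3.03 and 3.01 FPKM in AD_Veh mice 1 to 5, against 1.81, 1.74, 1.50, 1.54 and 1.42 FPKM in WT_Veh mice 1 to 5. Every AD_Veh mouse lay above every WT_Veh mouse (log2 0.84, SE 0.14, adjusted p = 0.000242). Irf7, which is known to amplify type I interferon production, had 1.92, 0.703, 1.31, 1.03 and 0.860 FPKM in AD_Veh, against 0.906, 0.911, 0.234, 0.595 and 0.0642 FPKM in WT_Veh. These groups overlapped, with WT_Veh mice 1 and 2 above AD_Veh mice 2 and 5, and the difference was not called (log2 0.72, SE 0.24, adjusted p = 0.13). Stat2, the ISGF3 subunit that carries the activation domain, averaged 4.95 ± 0.422 FPKM in AD_Veh and 3.93 ± 0.755 FPKM in WT_Veh (SD, n = 5 each; adjusted p = 0.231). Irf1 (0.35) and the nuclear body protein Sp100 (0.35) had log2 differences that were not called.

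Among the tested sensors of nucleic acid, 3 of 5 were called higher (median 0.72), but Ifi204, Ifi207 and Dhx58 were tested only through 5xFAD libraries, so that 2 of the 3 calls came from members admitted by the group in which they are high. Ifi207, a member of the HIN-200 family, had 0.742, 0.247, 1.07, 0.523 and 0.914 FPKM in AD_Veh, against 0.0175, 0.176, 0.0345, 0 and 0 FPKM in WT_Veh. WT_Veh values were at or near 0, and mouse 2, the highest of them, still lay below the lowest AD_Veh mouse (log2 1.10, SE 0.17, adjusted p = 0.000116). Its neighbour Ifi204, a sensor of cytosolic DNA of the same family, had 0.629, 0.474, 1.39, 0.755 and 1.36 FPKM in AD_Veh, against 0.0506, 0.356, 0.116, 0.216 and 0.136 FPKM in WT_Veh. The lowest AD_Veh mouse again lay above the highest WT_Veh mouse (log2 1.04, SE 0.21, adjusted p = 0.00298). Ddx58 (RIG-I), the sensor of RNA with a 5′ triphosphate, was the tightest of the class, at 1.47 to 1.63 FPKM in AD_Veh and 0.576 to 0.822 FPKM in WT_Veh (log2 0.72, SE 0.10, adjusted p = 2.61e-05). Ifih1 (MDA5), the sensor of long double-stranded RNA, averaged 1.48 ± 0.267 FPKM in AD_Veh and 0.979 ± 0.274 FPKM in WT_Veh and was not called (adjusted p = 0.347), although its groups did not overlap. Dhx58 (LGP2), the regulator of those sensors, averaged 0.450 ± 0.151 FPKM in AD_Veh and 0.316 ± 0.212 FPKM in WT_Veh (adjusted p = 0.687).

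Of the 4 tested genes for OAS proteins and enzymes of double-stranded RNA, 3 were called higher (median 0.88). Oasl2, an OAS-like protein, had 2.57, 1.38, 2.68, 1.81 and 2.07 FPKM in AD_Veh, against 0.612, 0.890, 0.333, 0.408 and 0.780 FPKM in WT_Veh, with no overlap (log2 1.24, SE 0.20, adjusted p = 0.000175). Oas1a, which makes the 2-5A messenger that activates RNase L, had 1.48, 0.832, 0.908, 1.05 and 1.0 FPKM in AD_Veh, against 0.446, 0.320, 0.219, 0.251 and 0.322 FPKM in WT_Veh. The lowest AD_Veh mouse was above the highest WT_Veh mouse here too (log2 0.93, SE 0.15, adjusted p = 0.00027). Eif2ak2 (PKR), the kinase that stops translation upon binding double-stranded RNA, averaged 2.48 ± 0.687 FPKM in AD_Veh and 1.14 ± 0.107 FPKM in WT_Veh (log2 0.83, SE 0.15, adjusted p = 0.00086). Adar, which edits adenosine to inosine in double-stranded RNA and is also made from a constitutive promoter, was among the highest members at 21.2 ± 1.68 FPKM in AD_Veh and 20.6 ± 1.65 FPKM in WT_Veh and was not called (adjusted p = 0.929). Its 95% interval ran from -0.14 to 0.22, and the sign of its estimate depended on the setting.

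The IFIT family, whose proteins bind viral RNA and restrict its translation, lies in a cluster of 4 members within 99316 bp of chromosome 19, and 3 of the 4 were called higher (median 1.15). Ifit3 had 9.91, 9.37, 12.9, 9.82 and 8.49 FPKM in AD_Veh, against 5.19, 5.53, 2.74, 2.03 and 3.82 FPKM in WT_Veh (log2 1.34, SE 0.24, adjusted p = 0.000914). The lowest AD_Veh mouse, number 5, exceeded the highest WT_Veh mouse, number 2. Ifit1 had 3.87, 2.29, 4.72, 3.44 and 2.87 FPKM in AD_Veh, against 1.63, 1.16, 0.777, 1.54 and 0.981 FPKM in WT_Veh (log2 1.19, SE 0.22, adjusted p = 0.00121), and these groups did not overlap either. Ifit3b averaged 4.26 ± 1.59 FPKM in AD_Veh and 1.63 ± 0.25 FPKM in WT_Veh (log2 1.11, SE 0.21, adjusted p = 0.00144). Ifit3 and Ifit3b are near-identical copies, and how the counting treated reads that match both is not given, so their separate levels are uncertain. Ifit2 averaged 4.92 ± 0.865 FPKM in AD_Veh and 3.5 ± 0.418 FPKM in WT_Veh and was not called (adjusted p = 0.0734).

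In the class of the ISG15 system, TRIM and PARP proteins, 4 of 7 were called higher (median 0.66). Trim30a, a TRIM protein known to restrain Toll-like receptor signalling, had 1.90, 1.45, 2.83, 2.16 and 2.50 FPKM in AD_Veh, against 0.832, 1.22, 0.717, 0.576 and 0.664 FPKM in WT_Veh, with no overlap (log2 1.03, SE 0.19, adjusted p = 0.000916). Usp18, the protease that removes ISG15 and blocks signalling at IFNAR2, had 1.30, 0.930, 1.56, 0.917 and 0.613 FPKM in AD_Veh, against 0.387, 0.497, 0.169, 0.403 and 0.348 FPKM in WT_Veh. AD_Veh mouse 5, the lowest, still stood above all WT_Veh mice (log2 0.84, SE 0.16, adjusted p = 0.00119). Isg15 itself averaged 2.55 ± 0.479 FPKM in AD_Veh and 1.33 ± 0.755 FPKM in WT_Veh and was not called (log2 0.81, SE 0.30, adjusted p = 0.202). WT_Veh mouse 1, at 2.54 FPKM, lay inside the AD_Veh range of 2.03 to 3.28 FPKM. The ADP-ribosyltransferase Parp14 (log2 0.66, SE 0.14, adjusted p = 0.00532) and Parp9, the partner of the ubiquitin ligase Dtx3l (log2 0.60, SE 0.17, adjusted p = 0.0473), were called, Parp9 only just. Trim25, the ligase that acts on RIG-I (log2 0.48, adjusted p = 0.0732), and Dtx3l (log2 0.20, adjusted p = 0.737) were not. Parp9 and Dtx3l overlap by 682 bp on opposite strands, and since it is not stated whether counting used the strand, their reads cannot be told apart there.

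Of the 6 tested interferon-induced GTPases, 2 were called higher (median 0.67). Gbp3, a guanylate-binding protein, had 3.06, 2.74, 4.25, 3.12 and 2.80 FPKM in AD_Veh, against 2.39, 2.16, 0.885, 1.01 and 1.13 FPKM in WT_Veh (log2 0.93, SE 0.22, adjusted p = 0.0135). The groups did not overlap, but WT_Veh mice 1 and 2 lay close to the AD_Veh mice, and without AD_Veh mouse 3, WT_Veh mouse 3 or WT_Veh mouse 4 it was not called (adjusted p at most 0.0576). Irgm1, which controls other immunity-related GTPases on membranes, had 3.73, 2.65, 3.87, 3.19 and 3.84 FPKM in AD_Veh, against 1.86, 2.16, 1.24, 1.52 and 1.94 FPKM in WT_Veh, again apart (log2 0.82, SE 0.16, adjusted p = 0.00272). None of the others was called: Gbp2 (log2 0.81, adjusted p = 0.128), Igtp (log2 0.54, adjusted p = 0.383), Iigp1 (log2 0.51, adjusted p = 0.544) and Gbp7 (log2 0.13, adjusted p = 0.859).

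The membrane and other effectors held the largest differences, and 8 of 11 were called higher (median 0.79). Lgals3bp, a secreted glycoprotein that binds galectins, had 25.5, 15.5, 24.5, 25.1 and 17.0 FPKM in AD_Veh, against 6.30, 5.23, 3.98, 4.16 and 3.45 FPKM in WT_Veh (log2 2.10, SE 0.23, adjusted p = 8.51e-07). The lowest AD_Veh mouse was more than 2-fold above the highest WT_Veh mouse. Ifi27l2a, a small membrane protein, had 7.97, 2.22, 6.87, 1.80 and 1.78 FPKM in AD_Veh, against 0.259, 0.782, 0, 1.02 and 0.393 FPKM in WT_Veh (log2 2.08, SE 0.45, adjusted p = 0.00611). AD_Veh mice 1 and 3 stood far above the other AD_Veh mice, all of which lay above the WT_Veh mice. Bst2 (tetherin), which holds budding virus at the cell surface, averaged 7.10 ± 2.53 FPKM in AD_Veh and 2.31 ± 0.947 FPKM in WT_Veh (log2 1.43, SE 0.27, adjusted p = 0.00152). Ifitm3, which blocks viral fusion with endosomes and is known to bind gamma-secretase, averaged 16.1 ± 4.70 FPKM in AD_Veh and 6.55 ± 1.98 FPKM in WT_Veh (log2 1.23, SE 0.21, adjusted p = 0.000469). Rtp4, Ifi35, Slfn2 and Ifi27 were called with log2 fold changes of 0.80, 0.79, 0.79 and 0.66, and in each of them the AD_Veh and WT_Veh mice overlapped. Rsad2 (viperin, 0.18), Xaf1 (0.49) and Slfn5 (0.51, adjusted p = 0.053) were not called.

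Some of the calls near the threshold were lost when 1 mouse was left out. Of the 24 calls, 18 were kept whichever of the 10 libraries was left out. Beside Gbp3, the calls lost at least once were those of Ifi27 (without AD_Veh mice 1 or 3 or WT_Veh mouse 3, adjusted p at most 0.0633), Ifi35 (without AD_Veh mice 1, 3 or 5 or WT_Veh mice 2, 3 or 5, at most 0.107) and Rtp4 (without AD_Veh mice 1, 3 or 5 or WT_Veh mice 3, 4 or 5, at most 0.116). Parp9 and Slfn2 had the highest adjusted p of the 24, 0.0473 in each. They lost the call in 9 and 10 of 12 other settings of the fit, in that order. With 1 mouse left out, Parp9 kept the call only without AD_Veh mouse 2 or WT_Veh mouse 1 (otherwise up to 0.180). Slfn2 kept it only without AD_Veh mouse 2 or WT_Veh mice 2 or 4 (otherwise up to 0.164). Conversely, Ifit2 was called without AD_Veh mouse 2, Slfn5 without WT_Veh mouse 2, Trim25 without AD_Veh mouse 4 or WT_Veh mouse 3, and Gbp2 and Stat2 without WT_Veh mouse 1, with adjusted p as low as 0.0363, 0.0285, 0.0441, 0.0462 and 0.0462 in that order. With AD_Veh mouse 3 left out, 18 members were called, the lowest count for any of the 10 libraries.

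**Figure D3:**
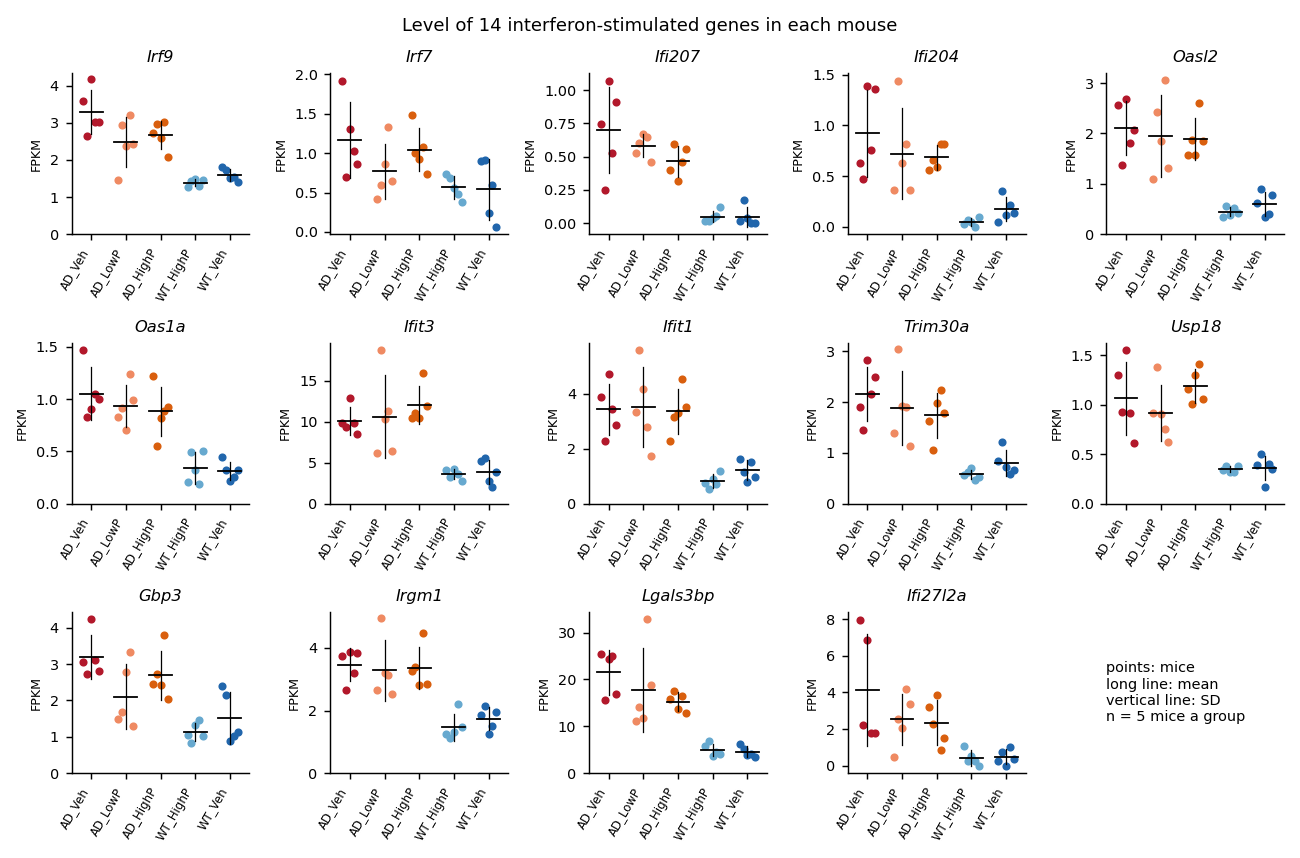
FPKM of 14 members in each of the 25 mice (points, replicate 1 to 5 from left to right), with the mean (long line) and SD (vertical line) of each group of 5. The AD_Veh and AD_HighP mice lie above all mice of the wild-type group given the same treatment, except for Irf7 between AD_Veh and WT_Veh and for Ifi27l2a at the high dose, where AD_HighP mouse 4 at 0.876 FPKM lies below WT_HighP mouse 1 at 1.10 FPKM.

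The 10 mice given the high dose offered the same genotype comparison in other animals, with no library shared. The spread of each gene was estimated once over all 25 libraries, so the p of both comparisons are not fully independent. Of the 42 tested members, 24 were higher in AD_HighP than in WT_HighP and 0 were lower, where 1.50% of all tested genes were called higher and 0.255% lower. Over all tested genes 42 were called lower, none of them a member, and 15 to 25 without AD_HighP mice 2, 4 or 5 or WT_HighP mice 1, 2 or 3. Over the 35 members that did not need 5xFAD libraries to meet the level for testing, 19 were called higher with a median of 0.74, and the other 5 calls were those of Ifi204, Ifi207, Oas1a, Usp18 and Iigp1. The median log2 fold change of the 42 was 0.78 (all tested genes 0.00), and in 32 members the groups did not overlap (3.22% of all tested genes). Those 32 include Ifi204, Ifi207, Oas1a, Usp18 and Iigp1. By role, the called members were 1 of 5 signalling factors, 3 of 5 sensors, 3 of 4 OAS and related enzymes, 4 of 4 IFIT genes, 5 of 7 of the ISG15, TRIM and PARP class, 4 of 6 GTPases and 4 of 11 membrane and other effectors. Both comparisons called 20 members, which is 83.3% of each list of 24. Among these 20, Ifi204, Ifi207, Oas1a and Usp18 met the level for testing only through 5xFAD libraries. Over all tested genes, 220 were called higher in both, which is 47.3% of the 465 called in vehicle mice and 89.4% of the 246 called in high-dose mice. Ifi27, Ifi27l2a, Ifi35 and Slfn2 were called in vehicle mice but not here, and Ifit2, Igtp, Iigp1 and Isg15 were called here but not in vehicle mice. The remaining 14, among them Irf1, Irf7, Stat2, Adar and Rsad2, were called in neither. With the Ttr level as a term in the fit, which was chosen after the data were seen, 24 members were again called in the high-dose comparison and 22 in the vehicle comparison.

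The IFIT family was called in all 4 members among high-dose mice. Ifit3 had 10.5, 11.1, 10.5, 16.0 and 12 FPKM in AD_HighP, against 4.15, 3.26, 4.23, 3.57 and 2.73 FPKM in WT_HighP (log2 1.61, SE 0.24, adjusted p = 0.000191). Ifit1 had 2.27, 3.16, 3.30, 4.56 and 3.52 FPKM in AD_HighP, against 0.767, 0.552, 0.888, 0.730 and 1.21 FPKM in WT_HighP (log2 1.53, SE 0.22, adjusted p = 0.00011). In both the lowest AD_HighP mouse lay well above the highest WT_HighP mouse. Isg15 had 1.65, 2.0, 2.92, 2.99 and 2.61 FPKM in AD_HighP, against 0.524, 0.388, 1.04, 0.622 and 0.945 FPKM in WT_HighP (log2 1.29, SE 0.30, adjusted p = 0.0164). Its groups were apart here, while in vehicle mice they overlapped, and without AD_HighP mouse 4, WT_HighP mouse 1 or WT_HighP mouse 2 it was not called (adjusted p at most 0.0610).

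For the other members named in full, the high-dose mice gave these values. Irf9 was at 2.08 to 3.03 FPKM in AD_HighP and 1.27 to 1.49 FPKM in WT_HighP (log2 0.74, SE 0.14, adjusted p = 0.00198). Oasl2 was at 1.58 to 2.60 FPKM in AD_HighP and 0.346 to 0.552 FPKM in WT_HighP (log2 1.34, SE 0.20, adjusted p = 0.000127). Usp18 was at 1.0 to 1.41 FPKM in AD_HighP and 0.316 to 0.384 FPKM in WT_HighP (log2 0.99, SE 0.16, adjusted p = 0.00033). Each of these feedback and effector genes was separate between the genotypes. Lgals3bp was at 12.9 to 17.6 FPKM in AD_HighP and 3.63 to 6.84 FPKM in WT_HighP (log2 1.54, SE 0.23, adjusted p = 0.000162). Irgm1 (0.98), Trim30a (1.03), Gbp3 (0.95), Ifi204 (1.11), Ifi207 (0.81) and Oas1a (0.71) were called with the log2 fold changes given, and Irf7 (0.53, adjusted p = 0.431) was not. Gbp3 was not called without AD_HighP mouse 4 or WT_HighP mouse 2 (adjusted p at most 0.0780). Ifitm3 (log2 0.88, SE 0.21, adjusted p = 0.0231) was not called without AD_HighP mice 2 or 4 or WT_HighP mice 2, 3 or 4 (at most 0.0912), and Ifi27l2a (log2 1.61, SE 0.45, adjusted p = 0.0716) was called without AD_HighP mouse 4 or WT_HighP mouse 1 (as low as 0.0465).

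Among the immunity-related GTPases, 1 mouse stood apart. Igtp had 4.28, 4.99, 4.43, 7.73 and 4.30 FPKM in AD_HighP, against 2.43, 2.06, 2.12, 2.41 and 2.21 FPKM in WT_HighP (log2 1.01, SE 0.24, adjusted p = 0.025). Iigp1 had 0.797, 1.23, 0.746, 4.55 and 1.10 FPKM in AD_HighP, against 0.326, 0.320, 0.155, 0.283 and 0.477 FPKM in WT_HighP (log2 1.21, SE 0.29, adjusted p = 0.0229). AD_HighP mouse 4 was the highest of the 25 mice for both, as it was for Gbp2 (7.53 FPKM, against 0.865 to 1.60 FPKM in WT_HighP) and Irf1 (3.18 FPKM). Igtp was not called without it (adjusted p = 0.112), nor without AD_HighP mouse 2 or WT_HighP mice 2, 3 or 5. Iigp1 was still called without it, but not without WT_HighP mice 1, 3 or 4 (adjusted p at most 0.0774). The same mouse was 1 of the 2 in which any transcript of Ifng was listed, at 0.0895 FPKM, the other being AD_Veh mouse 4 at 0.0494 FPKM. Both values lie far below the 0.5 FPKM required for testing. AD_HighP mouse 4 also held choroid plexus transcripts, and whether Ifng or those transcripts move with these GTPases was not tested.

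Whether the genotype difference itself depended on the high dose was tested as an interaction. It was called for 0 of the 42 members and for 0% of all tested genes, with 0 members and 6.92% of all tested genes at an unadjusted p under 0.05, and the lowest adjusted p among members was 0.728 (limma). The members called in one comparison alone are therefore not shown to differ between them. For Iigp1 the interaction was 0.70 (95% interval -0.14 to 1.54), for Isg15 0.48 (95% interval -0.38 to 1.34) and for Lgals3bp -0.56 (95% interval -1.23 to 0.12). Intervals lay within a 2-fold change in either direction for 35 of 42 members, and the intervals of the other 7 reached beyond it.

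The comparisons of treated with vehicle-treated mice asked whether P moved the members, and no member was called in any of them. In AD_LowP against AD_Veh 0 of 42 members and 0% of all tested genes were called. The median log2 fold change was -0.12 (all tested genes -0.01), 35 of the 42 estimates (83.3%) were below 0, against 53.2% of all tested genes, and 3 members (7.14%) had an unadjusted p under 0.05, against 2.98% of all tested genes. These were Irf9 (-0.37, unadjusted p = 0.0132), Gbp3 (-0.55, 0.018) and Ifitm3 (-0.46, 0.037), each with an adjusted p of 1 in limma. Irf9 was at 1.46, 2.93, 2.39, 3.21 and 2.42 FPKM in AD_LowP mice 1 to 5, overlapping the AD_Veh range of 2.64 to 4.19 FPKM. Gbp3 was at 1.48, 1.68, 2.77, 3.32 and 1.29 FPKM in AD_LowP, against 2.74 to 4.25 FPKM in AD_Veh. Eif2ak2 had the highest estimate, at 0.29 (unadjusted p = 0.06), with 3.44, 3.90, 2.74, 3.31 and 2.19 FPKM in AD_LowP. The 95% intervals of 40 of the 42 members lay within a 2-fold change in either direction, and the exceptions were Ifi27l2a (95% interval -1.45 to 0.40) and Gbp3 (95% interval -1.0 to -0.10).

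In AD_HighP against AD_Veh 0 of 42 members were called, where 0.00608% of all tested genes were, and 0 members had an unadjusted p under 0.05, against 5.98% of all tested genes. The median was -0.08 (all tested genes 0.00), and 30 of 42 estimates (71.4%) were below 0, against 49.4% of all tested genes. Lgals3bp averaged 15.3 ± 1.99 FPKM in AD_HighP and 21.5 ± 4.84 FPKM in AD_Veh (log2 -0.46, 95% interval -0.93 to 0.02). Slfn2, a schlafen protein of immune cells, averaged 1.70 ± 0.545 FPKM in AD_HighP and 2.42 ± 0.346 FPKM in AD_Veh (-0.44, 95% interval -0.89 to 0.01). The highest estimate was that of Igtp (0.37, 95% interval -0.13 to 0.87), with mouse 4 included. Intervals lay within a 2-fold change for 41 of 42 members, all but Ifi27l2a (95% interval -1.49 to 0.35).

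Between the doses, AD_HighP against AD_LowP called 0 of 42 members and 0% of all tested genes, and all 42 intervals lay within a 2-fold change. The 1 member with an unadjusted p under 0.05 was Eif2ak2, with 2.37, 1.80, 1.93, 2.13 and 2.63 FPKM in AD_HighP, against 3.44, 3.90, 2.74, 3.31 and 2.19 FPKM in AD_LowP (log2 -0.42, 95% interval -0.73 to -0.12, unadjusted p = 0.00894, adjusted p = 0.773 in limma). Across vehicle, low and high dose in 5xFAD mice, the mean of Irf9 was 3.29, 2.48 and 2.68 FPKM and that of Lgals3bp 21.5, 17.7 and 15.3 FPKM. That of Ifit3 was 10.1, 10.6 and 12 FPKM and that of Usp18 1.06, 0.918 and 1.19 FPKM. None of these steps was called. The 3 comparisons among the 5xFAD groups share libraries and are not independent of each other.

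In wild-type mice, WT_HighP against WT_Veh called 0 of 42 members, where 3.17% of all tested genes were called. At an unadjusted p under 0.05 stood 1 member (2.38%), against 27.8% of all tested genes. That member was Gbp7, at 0.907, 0.961, 1.195, 0.922 and 0.753 FPKM in WT_HighP, against 1.97, 1.35, 1.26, 1.201 and 0.983 FPKM in WT_Veh (log2 -0.34, unadjusted p = 0.0478, adjusted p = 0.175 in limma). WT_Veh mouse 5 alone lay within the WT_HighP range, and the other WT_Veh mice lay above it. The median of the 42 was -0.11 (all tested genes 0.00), and 39 of 42 intervals lay within a 2-fold change, the exceptions being Isg15 (95% interval -1.16 to 0.06), Iigp1 (95% interval -1.02 to 0.16) and Ifi27l2a (95% interval -1.03 to 0.82). The share over all genes itself was unsteady: 228 genes were called higher and 294 lower, but 0 of either without WT_Veh mouse 5 or WT_HighP mouse 3, and 1293 higher and 1434 lower without WT_Veh mouse 1. Without any other single mouse except WT_HighP mouse 5, at most 38 genes were called higher and 50 lower, and with the Ttr level as a term 0 were called. With levels corrected for the GC content of the genes, 13 were called higher and 10 lower. The share at an unadjusted p under 0.05 was then 10.5%. Slopes of level on GC content (log2 per 10 points) were 0.0983 to 0.232 in WT_HighP and -0.291 to 0.0726 in WT_Veh. With any library left out, 0 members were called.

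**Figure D4:**
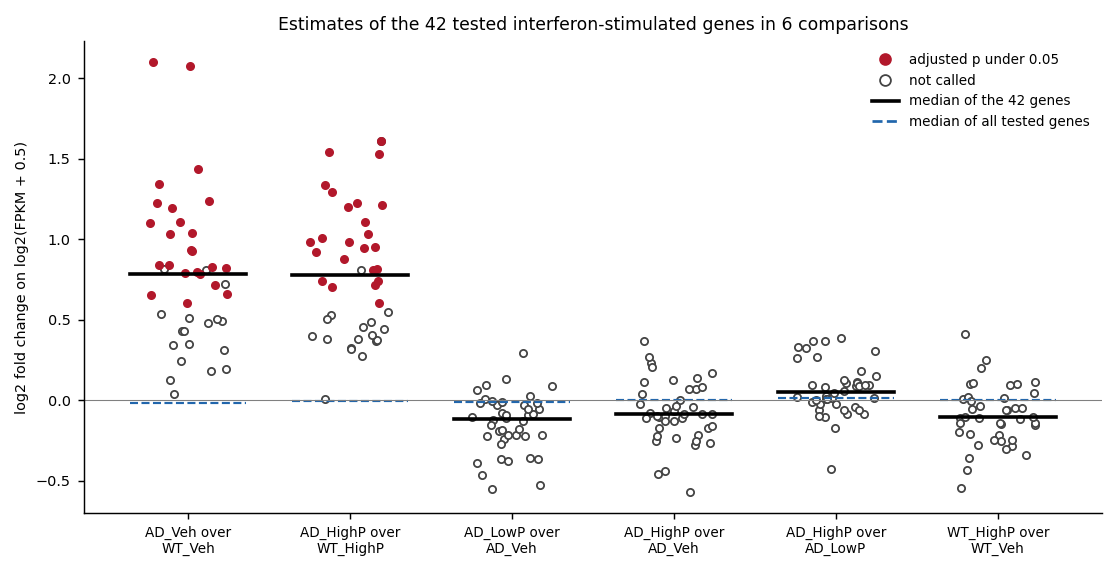
Log2 fold changes of the 42 tested members (points, spread sideways for legibility) in 6 comparisons, with their median (black line) and the median of all tested genes (dashed blue line); red points have an adjusted p under 0.05. The medians of the members are 0.79 and 0.78 in the comparisons of genotype and lie between -0.12 and 0.05 in the 4 comparisons of treatment, where no point is red.

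In 4 of the 5 groups, 1 mouse held the highest or the lowest value for at least 21 of the 42 members. In AD_Veh, mouse 3 was the highest of the 5 for 23 members (54.8%), against 15.7% of all tested genes, and mouse 2 was the lowest for 22 (52.4%), against 14.3%. In AD_LowP, mouse 2 was the highest for 22 members (52.4%, all tested genes 22.3%), and mice 1 and 5 were the lowest for 17 each (40.5%, all tested genes 24.2% and 16.1%). Ifit3 was at 18.8 FPKM in AD_LowP mouse 2, against 6.21 and 6.48 FPKM in mice 1 and 5 of the group. In AD_HighP, mouse 4 was the highest for 21 members (50%, all tested genes 19.3%). In WT_Veh, mice 2 and 1 were the highest for 19 and 17 members (45.2% and 40.5%, all tested genes 13.0% and 25.9%), and mouse 3 was the lowest for 22 (52.4%, all tested genes 20.7%). In WT_HighP no mouse stood out, with mice 1 to 5 the highest for 11, 3, 10, 6 and 12 members and median deviations of -0.06 to 0.04. Over the 42 members, the median deviation from the group mean on the log2 scale was 0.29 in AD_Veh mouse 3 and -0.20 in AD_Veh mouse 2, and 0.33 in AD_LowP mouse 2, -0.23 in AD_LowP mouse 1 and -0.26 in AD_LowP mouse 5. It was 0.16 in AD_HighP mouse 4, and 0.20, 0.21 and -0.27 in WT_Veh mice 1, 2 and 3. Over 9 microglial markers it was 0.16 and -0.10 in those AD_Veh mice, and 0.17, 0.11 and -0.36 in those AD_LowP mice. In AD_HighP mouse 4 it was 0.07, and in those WT_Veh mice 0.17, 0.08 and 0.04. AD_LowP mouse 1 and WT_Veh mouse 3 were thus low for the members and not for these markers. What these deviations move with was not tested.

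**Figure D5:**
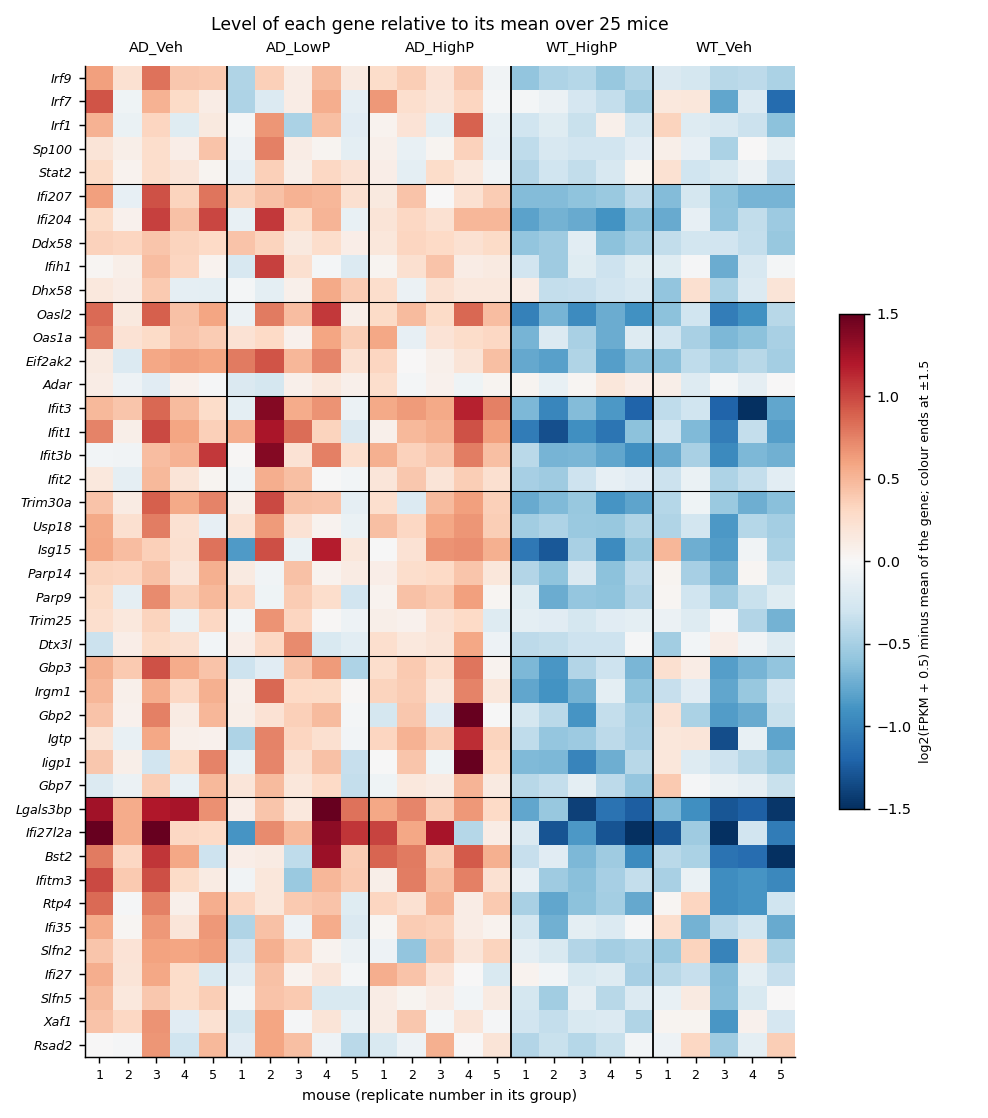
Level of the 42 tested members (rows, grouped by role) in each of 25 mice (columns), as log2(FPKM + 0.5) minus the mean of the gene over all mice, with red above and blue below that mean and colour ending at 1.5. The 15 columns of 5xFAD mice are mostly red and the 10 of wild-type mice mostly blue, and AD_Veh mouse 3, AD_LowP mouse 2 and AD_HighP mouse 4 hold the highest value of their group for 23, 22 and 21 members.

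Beside the members, 47 other genes of the interferon pathway were looked at, of which 35 were tested. In AD_Veh against WT_Veh 11 were called higher and 0 lower, with a median of 0.32 (all tested genes 2.83% higher, median -0.02). In AD_HighP against WT_HighP 7 were called higher and 0 lower, with a median of 0.21 (all tested genes 1.50% higher, median -0.002). The 35 include Cxcl10, which was called in both comparisons, and Nlrc5. Both reached 0.5 FPKM in 5xFAD mice only, and the counts were not repeated without them. The ligands were listed at or near 0: Ifnb1, Ifna4, Ifnk, Ifne, Ifnl2 and Ifnl3 were listed at 0 in all 25 libraries, and Ifng was listed above 0 only in the 2 mice named above. Trex1, a widely expressed DNA exonuclease, was also listed at 0 in all 25, so these zeros are given as listed and not read as low expression. Among the receptors, Ifnar1 averaged 7.88 ± 0.525 FPKM in AD_Veh and 7.82 ± 0.896 FPKM in WT_Veh and was not called (adjusted p = 0.973). Its partner Ifnar2 was called in vehicle mice, at 3.93 ± 0.295 FPKM in AD_Veh and 2.74 ± 0.514 FPKM in WT_Veh (log2 0.46, SE 0.10, adjusted p = 0.00493). The interferon-gamma receptor genes Ifngr1 and Ifngr2 were not called (log2 0.18 and 0.13). Il10rb, a subunit of the interferon-lambda and interleukin-10 receptors, was called in vehicle mice (log2 0.46, SE 0.13, adjusted p = 0.0454), but kept the call only without WT_Veh mouse 2 or 4 (otherwise adjusted p up to 0.153). In high-dose mice neither gene was called: Ifnar2 had a log2 difference of 0.21 (adjusted p = 0.472) and Il10rb one of -0.09 (adjusted p = 0.869). The interaction for Il10rb was -0.55 (unadjusted p = 0.00561, adjusted p = 0.71).

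Of the kinases and STATs looked at, Stat3, the main STAT of interleukin-6 type cytokines, was called (8.97 ± 0.721 FPKM in AD_Veh and 5.40 ± 0.511 FPKM in WT_Veh, log2 0.68, adjusted p = 1.22e-05). In high-dose mice Stat3 was not called (log2 0.34, adjusted p = 0.0518). Jak1, Jak2 and Tyk2 had estimates between -0.11 and 0.17 and were not called. Among the regulators, the phosphatase Ptpn6 (1.66) and the myeloid factors Irf8 (1.33) and Irf5 (0.88) were called in vehicle mice, and all of them again in high-dose mice (1.23, 1.04 and 0.69). Irf3, Irf2, Socs1, Ptpn2 and Pias1 had estimates between -0.15 and 0.07, and Socs3 (0.83, adjusted p = 0.0879) was not called. Among upstream sensors and adaptors, the endosomal RNA receptor Tlr7 (1.28), its chaperone Unc93b1 (1.01) and Tmem173 (STING, 0.58) were called in vehicle mice. Those not called were Myd88 (0.67, adjusted p = 0.112 in limma), Tlr9 (0.64, adjusted p = 0.0528 in limma), Ticam1 (0.43), Mb21d1 (cGAS, 0.31), Tlr3 (0.17), Aim2 (0.11), Mavs (0.08), Samhd1 (-0.003) and Tbk1 (-0.05). In high-dose mice Tlr7 (0.86) and Unc93b1 (0.74) were called and Tmem173 (0.34, adjusted p = 0.367) was not. The chemokine Cxcl10 averaged 1.11 ± 0.757 FPKM in AD_Veh and 0.0106 ± 0.0145 FPKM in WT_Veh (log2 1.50, SE 0.30, adjusted p = 0.00343), and the immunoproteasome subunit Psmb8 1.55 ± 0.273 FPKM in AD_Veh and 0.564 ± 0.237 FPKM in WT_Veh (log2 0.96, SE 0.18, adjusted p = 0.00121). Cxcl10 met the level for testing only through 5xFAD libraries, the group in which it is high. Its highest wild-type value was 0.182 FPKM, in WT_HighP mouse 2. Some calls of pathway genes were lost when 1 mouse was left out: Tmem173 was not called without AD_Veh mouse 4 or WT_Veh mouse 5 (adjusted p at most 0.0793), Cxcl10 in high-dose mice not without AD_HighP mouse 4 (0.0635), and Irf5 in high-dose mice not without AD_HighP mice 1, 2 or 4 or WT_HighP mice 1 or 5 (at most 0.103).

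Markers of microglia moved with genotype beside the members. The summed level of 9 microglial markers (Cx3cr1, P2ry12, Tmem119, Csf1r, Aif1, Itgam, Fcrls, Siglech and Sall1) was 140.1 to 166 FPKM in AD_Veh, 104 to 143 FPKM in AD_LowP, 112 to 141 FPKM in AD_HighP, 64.4 to 91.3 FPKM in WT_HighP and 62.0 to 91.1 FPKM in WT_Veh. Of the 9, 5 were called higher in AD_Veh against WT_Veh (median log2 0.66) and 4 in AD_HighP against WT_HighP (median 0.67), and 0 were called lower. Over all tested genes, 2.83% and 1.50% were called higher in these comparisons. In AD_LowP and in AD_HighP against AD_Veh all 9 estimates were below 0 (medians -0.18 and -0.30), and 0 were called. More cells of a type and more RNA per cell cannot be told apart in bulk tissue, and the part of these markers in the difference of the members was not tested. The summed level of 7 astrocyte markers, Gfap among them, was 820 to 1106 FPKM in AD_Veh and 494 to 628 FPKM in WT_Veh, with 2 of the 7 called higher. Their estimates were uneven, with a median of 0.24, a highest value of 3.69 and 2 of the 7 below 0. In AD_HighP against WT_HighP 1 of the 7 was called higher, with a median of 0.11 and again 2 below 0. The 7 endothelial markers summed to 58.2 to 87.8 FPKM in AD_Veh and 60.8 to 87.8 FPKM in WT_Veh, with 0 called. The 6 inhibitory neuron markers summed to 312.7 to 390.0 FPKM in AD_Veh and 390.2 to 450.8 FPKM in WT_Veh, with 0 called, and to 302 to 349.9 FPKM in AD_HighP and 397 to 518 FPKM in WT_HighP. There the GABA transporter Slc32a1 was called lower (log2 -0.78, adjusted p = 0.00673), and the sums did not overlap in either comparison. The markers did not all go the same way. Of the 6 estimates, 1 lay above 0 in vehicle mice (0.10) and 2 in high-dose mice (at most 0.34). All 6 oligodendrocyte markers had estimates above 0 in AD_Veh against WT_Veh (median 0.41) and below 0 in AD_LowP against AD_Veh (median -0.25), with 0 called. The 12 markers of blood and infiltrating leukocytes, of which 3 were tested and 0 called, summed to 4.70 to 8.69 FPKM in AD_Veh, 0.524 to 8.02 FPKM in AD_LowP, 0.747 to 4.91 FPKM in AD_HighP, 0.854 to 6.54 FPKM in WT_HighP and 0.784 to 14.4 FPKM in WT_Veh. The defining T-cell gene Cd3e was at 0 to 0.0593 FPKM in AD_Veh and 0 to 0.0434 FPKM in WT_Veh, and the B-cell gene Ms4a1 was at most 0.0103 FPKM in any mouse.

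The 7 members below the level for testing had group means under 0.5 FPKM throughout. Mx1, the GTPase that traps viral nucleocapsids, averaged 0.190 ± 0.0482 FPKM in AD_Veh and 0.0537 ± 0.0510 FPKM in WT_Veh, and 0.303 ± 0.207 FPKM in AD_HighP and 0.0465 ± 0.0438 FPKM in WT_HighP. Zbp1, the sensor of Z-form nucleic acid, averaged 0.333 ± 0.0931 FPKM in AD_Veh and 0.0784 ± 0.101 FPKM in WT_Veh (SD, n = 5 each). In a fit without the level filter 0 of these 7 were called in either genotype comparison, with 5 at an unadjusted p under 0.05 in vehicle mice and 6 in high-dose mice, against 8.35% and 7.41% of all genes in that fit, and the lowest adjusted p was 0.129 (limma), for Mx1 in high-dose mice. The estimates of all 7 were above 0 in both comparisons, between 0.07 and 0.54. The adjustment in that fit ran over 32752 genes.

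Position and start sequence were compared with the calls as a description. Of the members with a RefSeq window, 20 were called in either genotype comparison, and 14 of them (70.0%) held an ISRE core. The core occurred in 6 of 13 tested members called in neither (46.2%) and in 1 of 3 members below the level for testing. Among the members named in full, Ifit1, Ifit3, Trim30a, Gbp3, Irgm1, Oas1a and Ifi207 held a core, and Oasl2, Lgals3bp, Irf9 and Irf7 held none within the window. In 9 clusters on the genome, with gaps of at most 200000 bp, lay 23 of the 49 members, and 10 members lay on chromosome 11. Ifi204 and Ifi207 were both called from 1 cluster on chromosome 1, while on chromosome 3 Gbp3 was called and its neighbours Gbp2 and Gbp7 were not. Members with close copies in the genome (Ifi204, Ifi207, Oas1a, the Gbp genes, Igtp, Ifi27l2a and Trim30a) may share reads with them, so that their levels carry that uncertainty.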

How the data were processed

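Cortical RNA of 25 mice was measured by RNA sequencing. Groups were taken from the labels; the design text describes them as different mice. Libraries were strand-specific and poly(A)-selected, per the labels' protocols, and were aligned to mm10 with HISAT2, per the submitters' processing notes; the sources used here give neither the counter nor the annotation. The deposited values are FPKM computed by the authors, with gene length in bp. FPKM times length gave whole reads for 100% of the nonzero values (tolerance 0.01 reads); no label or header says whether PCR duplicates were removed.

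Genes at 0.5 FPKM or more in at least 5 libraries were tested as log2(FPKM + 0.5), with pseudocount 0.5, in limma 3.58.1 (R 4.3.3), with 1 mean per group over all 25 libraries, two-sided, adjusted within a contrast by the Benjamini-Hochberg method; a call is an adjusted p under 0.05. The script was tested on simulated data. The members and lists were chosen with earlier results of these data known, so no list has a p. A few genes are not reported here and were left out of the marker and pathway lists. Named in full are the 2 members per role with the largest difference in AD_Veh against WT_Veh and any member called for treatment or interaction, of which there were 0; other members named were chosen after their values were seen. Alternatives were other pseudocounts and filters, GC correction, quantile normalization, sex, the replicate number, array weights, the groups compared alone, the Ttr level and each library left out.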

Additional observations from a re-analysis of the deposited data

Results flagged for a closer look

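Of 210 groups looked at (42 members in 5 groups), 10 (4.76%) held a mouse whose gap to the nearest other mouse, divided by the range of the group, passed the 95% critical value of 0.71 for 5 values; chance alone flags about 1 in 20. In AD_HighP, mouse 4 stood above the others for Igtp (7.73 FPKM, others 4.28 to 4.99) and Iigp1 (4.55 FPKM, others 0.746 to 1.23), both GTPases known as targets of interferon-gamma. In AD_Veh, mouse 3 stood above for Gbp3 (4.25 FPKM, others 2.73 to 3.12). In AD_LowP, mouse 2 stood above for Sp100 (1.40 FPKM, others 0.517 to 0.718). In WT_HighP, mouse 3 was high for Ddx58 (0.926 FPKM, others 0.542 to 0.625) and low for Trim25 (1.58 FPKM, others 1.71 to 1.76). In the same group, mouse 1 was high for Dhx58 (0.467 FPKM, others 0.197 to 0.255) and mouse 5 for Dtx3l (1.51 FPKM, others 1.05 to 1.14) and Rsad2 (0.604 FPKM, others 0.339 to 0.407). In WT_Veh, mouse 2 was high for Ifi207 (0.176 FPKM, others 0 to 0.0345).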

How the results depend on the processing

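The number of members called higher stayed within 1.5 times the 24 reported in both comparisons of genotype: over 12 other settings and 10 left-out libraries it was 17 to 25 in AD_Veh against WT_Veh and 20 to 32 in AD_HighP against WT_HighP, with 0 called lower, and it stayed at 0 for every comparison of treatment and for the interaction. Of the 24 calls in each, 17 and 20 were kept in all 12 other settings. The median log2 fold change moved with the pseudocount, to 0.98 with 0.1 and 0.61 with 1 in AD_Veh against WT_Veh, and to 1.04 with 0.1 and 0.57 with 1 in AD_HighP against WT_HighP. Adar reversed in AD_Veh against WT_Veh with GC correction, alone (-0.0351) or with the replicate block (-0.0351), and ran from -0.0427 to 0.0412 with 1 library left out in AD_HighP against WT_HighP. Same-numbered mice were not paired by the labels or the data: 11 of 50 correlations of their deviations passed 0.1, and the best match had the same number in 20 of 100 cases. With the replicate block 21 and 24 members were called in AD_Veh against WT_Veh and AD_HighP against WT_HighP. Over all genes, WT_HighP against WT_Veh called 228 higher and 294 lower, 104 and 114 with the replicate block, 13 and 10 with GC correction, 9 and 3 with both, 0 without the level filter, 381 and 448 with sex as a term, 851 and 675 in these groups alone and 1691 and 1680 with array weights. Array weights moved AD_HighP against WT_HighP over all genes to 599 higher and 371 lower, and the fit of these groups alone to 343 and 175, against 246 and 42; with 1 library left out 191 to 253 were higher and 15 to 50 lower. Over all settings and left-out libraries, genes called lower numbered 21 to 170 in AD_Veh against WT_Veh, against the 45 reported, and array weights called 4 and 5 genes higher and lower for the interaction. Low levels limit the precision: 17 members averaged under 1 FPKM in WT_Veh.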
